A study of Mus musculus with 7 samples.

Results

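The replication-dependent histone genes were followed in mammary tumours that arose in ECD transgenic mice and in control glands. They were taken as every row whose gene symbol starts with Hist1h, Hist2h, Hist3h or Hist4h, which gave 70 of the 50600 rows of the tables. By class these are 6 genes of the linker histone H1, 20 of H2A, 19 of H2B, 12 of H3 and 13 of H4. Among them Hist1h2al, Hist1h2aj and Hist3h2bb-ps are annotated as pseudogenes and were kept. ECD, the product of the ecdysoneless gene, is known as a regulator of the cell cycle. RNA was sequenced from 3 control glands and 4 tumours, with 1 library each: the adenosquamous carcinomas 1a and 1b, the spindle cell carcinoma 3 and the papillary carcinoma 4. Glands are labelled only as control mammary gland, and tumours as ECD transgenic mammary tumour, with RNA taken from the centre of the tumour. The sources used here do not give the strain, the age, the promoter of the transgene or the cells it is active in. Adenosquamous tumours 1a and 1b may be pieces of 1 animal's tumour or separate ones, which no label settles, so for that pair the p-values may measure a partly technical spread.

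Histones package DNA. H2A, H2B, H3 and H4 form the core of the nucleosome and H1 binds the linker between nucleosomes. A dividing cell must double its histones with its DNA, and the genes described here are known to be transcribed mainly in S phase, from clusters of intronless genes. Most animal mRNAs end in a poly(A) tail, but these end mainly in a short stem-loop that the protein SLBP binds, and they decay quickly when DNA synthesis stops. Some of the genes also carry a distal poly(A) site that gives tailed transcripts in cells that have stopped dividing. The library kit named in the labels selects RNA by its poly(A) tail, so the values describe the tailed part of each gene's RNA, and how that part relates to the total was not tested.

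The stem-loop is the feature that sets these mRNAs apart, so it was looked for in the annotated 3′ untranslated regions (UTRs) of GENCODE M21 (build GRCm38), where 68 of the 70 members were found by identifier. A stem of 6 paired bases around a loop of 4 was found in 42 of the 50 members with an annotated 3′ UTR of at least 30 bases, between 22 and 59 bases after the stop codon. The following 6 members show its forms, 5′ to 3′, with the stem and loop in capitals.
Hist1h1e: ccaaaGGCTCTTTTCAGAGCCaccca
Hist1h3e: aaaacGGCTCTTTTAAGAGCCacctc
Hist2h2ac: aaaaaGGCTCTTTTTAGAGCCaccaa
Hist1h4f: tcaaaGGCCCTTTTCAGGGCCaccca
Hist1h4b: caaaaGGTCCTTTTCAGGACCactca
Hist2h4: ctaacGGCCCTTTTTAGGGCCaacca
The stem of Hist1h1e, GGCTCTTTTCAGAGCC, was the form in 10 H2A, 6 H2B, 5 H3 and 3 H1 genes. None of the 11 H4 genes with a match had it. In H4, 7 genes had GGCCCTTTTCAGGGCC, 2 had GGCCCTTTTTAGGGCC and 2 had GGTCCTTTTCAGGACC. In 21 of the 42 members, more than 100 bases of annotated UTR followed the stem-loop.

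Promoters were read from RefSeq (GRCm38.p6), which held 62 entries for 61 members, as 250 bases before and 50 after the start. The 250 bases before the start are shown for 3 members that rose in tumours with small p-values. They differ in the motifs searched for, and Hist1h4b has none of them. Capitals mark strings on either strand: the CCAAT box, the octamer ATTTGCAT, the TATA box (searched as TATAAA) and a relaxed form of the E2F site, TTTNNCGC.
Hist1h2ab, chr13:23750838-23751087, plus strand: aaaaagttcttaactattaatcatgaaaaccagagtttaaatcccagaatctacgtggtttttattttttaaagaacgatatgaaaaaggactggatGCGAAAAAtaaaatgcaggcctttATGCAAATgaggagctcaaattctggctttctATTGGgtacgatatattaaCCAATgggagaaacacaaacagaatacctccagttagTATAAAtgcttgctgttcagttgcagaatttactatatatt
Hist1h3h, chr13:21717378-21717627, plus strand: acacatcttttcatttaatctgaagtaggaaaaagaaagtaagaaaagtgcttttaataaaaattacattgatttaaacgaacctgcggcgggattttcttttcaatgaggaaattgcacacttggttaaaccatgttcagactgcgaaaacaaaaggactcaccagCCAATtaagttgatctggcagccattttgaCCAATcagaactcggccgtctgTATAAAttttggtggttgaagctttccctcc
Hist1h4b, chr13:23756687-23756936, plus strand: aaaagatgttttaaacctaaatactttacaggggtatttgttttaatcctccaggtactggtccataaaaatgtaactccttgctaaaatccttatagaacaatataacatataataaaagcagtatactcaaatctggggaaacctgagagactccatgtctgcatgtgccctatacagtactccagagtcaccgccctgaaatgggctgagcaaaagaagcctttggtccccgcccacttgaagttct
The octamer, the site of POU factors such as Oct-1, was in 7 of 17 H2A and 7 of 17 H2B promoters and in no H1, H3 or H4 promoter. It was in 22.58% of the 62 histone promoters and in 1.74% of all 32851 promoters of the same length. CCAAT was in every H1, H2A, H2B and H3 promoter of the table but in 3 of 12 H4 promoters, against 37.41% of all promoters. TATAAA was in 56.45% of histone promoters and 13.62% of all, and TTTNNCGC in 29.03% and 5.17%. A match is a string in the sequence and not evidence of a bound factor.

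Copies of these genes are nearly identical, which limits what the count of a single gene means. The 13 H4 genes encode 1 protein, the 12 H3 genes 3 different proteins, and 9 of the 18 H2A genes with a coding transcript encode the same protein. In the median H2A gene, 68.0% of all stretches as long as a read (75 bases) also occurred in another member. This share was 52.35% for H3, 36.9% for H2B, 24.6% for H4 and 0.75% for H1. The extremes were Hist2h2aa2 at 100%, and Hist1h1a, Hist1h1b, Hist2h2bb, Hist2h2be, Hist2h4 and Hist4h4, among others, at 0. Class totals, which do not depend on how reads were divided among copies within a class, are therefore given first and single genes after them.

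Gland 1 held 5148436 counts in all, glands 2 and 3 held 35631302 and 34079733, and the tumours ranged from 5420572 to 28638194. Histone genes held 222 counts in gland 1, with 48 of 70 members at 0, against 3000 to 5571 counts in the other glands and 5192 to 26907 in the tumours. Mitochondrial transcripts made up 48.4% to 64.8% of the gland libraries and 18.3% to 32.6% of the tumour libraries. The 8 skeletal muscle markers (among them Acta1 and Ckm) summed to 52539 and 80969 counts per 1000000 (CPM) in glands 1 and 3 and to 97.4 CPM in gland 2. The 8 adipocyte markers, of which 7 were called lower in tumours, summed to 4815 to 11490 CPM in glands and 8.67 to 526 CPM in tumours. The 6 luminal epithelial markers were detected in all libraries, at 233 to 478 CPM in glands and 289 to 2295 CPM in tumours, highest in the papillary tumour. The 6 basal epithelial markers summed to 64.4 to 238 CPM in glands. In tumours 1a, 1b, 3 and 4 they summed to 1719, 783, 423 and 93.6 CPM. The 6 fibroblast markers summed to 405 to 1269 CPM in glands and 266 to 5933 CPM in tumours. The mouse gene Ecd itself differed by 0.30 on the log2 scale (adjusted p = 0.463, edgeR), and whether the transgene is counted there is not known from the labels. In bulk RNA, fewer cells of a type and less RNA per cell cannot be told apart, so part of any difference below may be one of tissue makeup, which was not tested.

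The histone genes were higher in every tumour than in every gland, in all 5 classes. CPM here uses library sizes after TMM normalization, which adjusts for differences in RNA composition. Values per library are given in the order glands 1, 2 and 3, then tumours 1a, 1b, 3 and 4. All members together summed to 78.5, 176 and 142 CPM in glands and to 1471, 706, 984 and 937 CPM in tumours. The lowest tumour, adenosquamous 1b, thus lay above the highest gland, gland 2.

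H3, which carries many of the modified tail residues of chromatin, showed the largest fold of the class totals. Its 12 genes summed to 2.12, 9.36 and 7.44 CPM in the glands and 184, 82.6, 113 and 139 CPM in the tumours. The means were 6.31 ± 3.75 CPM (SD, n = 3) and 129.6 ± 42.9 CPM (SD, n = 4). The class total was higher by 4.32 on the log2 scale (SE 0.58, adjusted p = 0.01085, edgeR quasi-likelihood F test), a 19.9-fold difference.

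H2A totals were 13.8, 46.0 and 26.7 CPM in glands and 451, 221, 313 and 165 CPM in tumours. Adenosquamous tumour 1a was highest and the papillary tumour lowest among the tumours. The log2 difference was 3.32 (SE 0.56, adjusted p = 0.01856, edgeR), or 9.96-fold. H1 totals were 8.13, 28.8 and 17.6 CPM in glands and 188, 101, 147 and 231 CPM in tumours, and here the papillary tumour was highest. The log2 difference of H1 was 3.19 (SE 0.52, adjusted p = 0.0164, edgeR), or 9.12-fold.

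H4 totals were 18.4, 45.9 and 36.9 CPM in glands and 335, 145, 212 and 218 CPM in tumours. The log2 difference of H4 was 2.75 (SE 0.45, adjusted p = 0.0164, edgeR), or 6.74-fold. H2B had the smallest fold of the 5 totals. Its totals were 36.1, 45.5 and 53.5 CPM in glands and 313, 157, 199 and 184 CPM in tumours, a log2 difference of 2.25 (SE 0.34, adjusted p = 0.01378, edgeR), or 4.74-fold. Differences between the classes' folds were not tested.

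**Figure D1:**
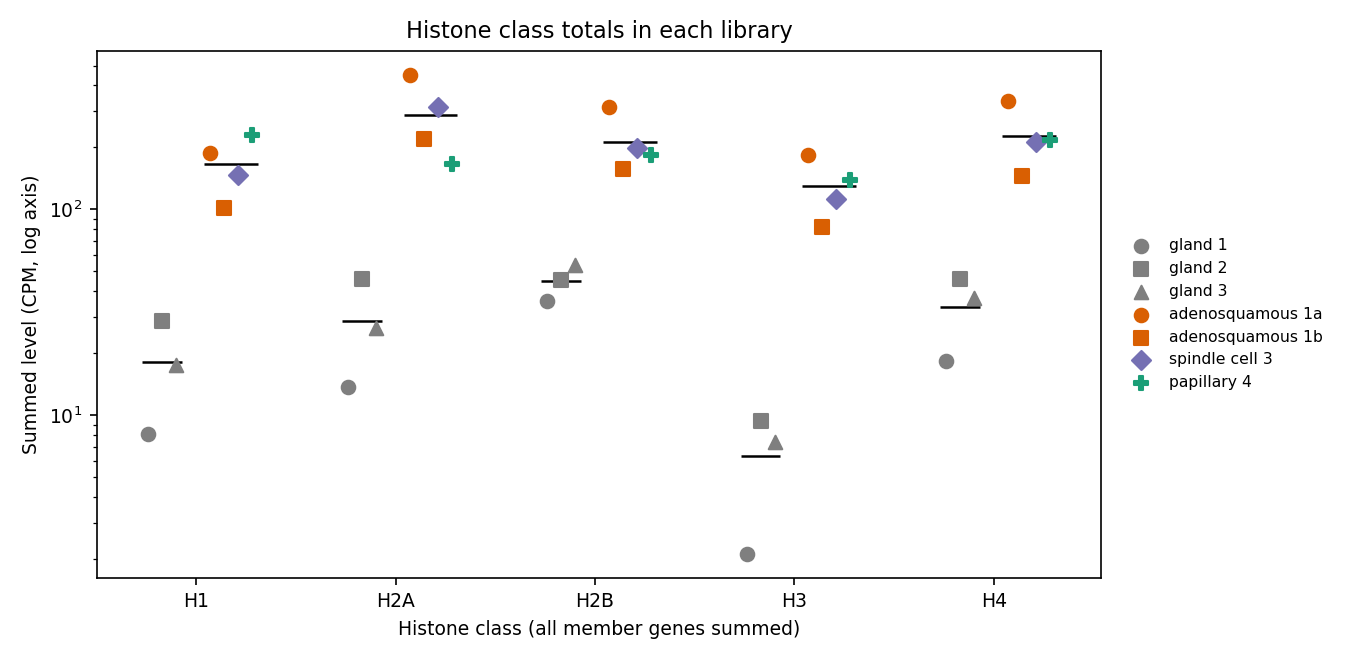
Summed level of each histone class in each library, in CPM on a log axis; points are libraries and lines are group means. The tumours lie above the glands in all 5 classes; gland 1 is lowest in each, and the papillary tumour is lowest of the tumours for H2A and highest for H1.

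The calls on class totals rest on few libraries. Without gland 3 none of the 5 totals passed the threshold, although the log2 differences stayed at 3.16, 3.26, 2.39, 4.43 and 2.82 for H1, H2A, H2B, H3 and H4 (adjusted p = 0.05903 to 0.09404, edgeR). Gland 3 is also a gland with abundant muscle transcripts. With gland 2, which has few, as the only control, the differences were 2.48, 2.58, 2.16, 3.73 and 2.25 and again none passed (adjusted p = 0.2128 to 0.3864). Without gland 1 the H2A, H2B and H4 totals, and without gland 2 the H2B total, also lost their call (adjusted p = 0.05139 to 0.05875).

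The order of the classes depends on how length enters. Divided by the annotated exon length of each gene (17 of the 19 H2B genes and all others had one), H2A was the highest class in tumours 1a, 1b and 3, at 974, 473 and 681 CPM per kilobase. In the papillary tumour H2A stood at 332 CPM per kilobase, beside 338 for H4. On this scale H1 was lowest in all 4 tumours, at 67.0 to 144 CPM per kilobase. Without it, H1 was the highest class of the papillary tumour, at 231 CPM against 139 to 218 CPM for the other classes. Hist1h1d alone has 7425 bases of annotated exon, of which 4931 are 3′ UTR, and which part of it the transcripts hold was not tested. In glands H3 was lowest on both scales, at 1.90 to 12.02 CPM per kilobase.

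For single genes, 61 of the 70 members had enough counts to be tested and 9 did not. A member with no counts in glands passes that filter only through the tumours, so what was found over the tested members is a description and not support for the direction. The tumours were higher in 46 members (adjusted p under 0.05, edgeR) and lower in none, and 15 were not called (DESeq2 called 56 higher and 1 lower). Over all 14149 genes tested, edgeR called 3.90% higher and 4.57% lower, and DESeq2 called 12.8% higher. All 4 tumours lay above all 3 glands in 56 members, against 16.3% of all genes. The median log2 difference was 4.33 over the tested members and 0.12 over all genes, and 37 members were above 4. At an unadjusted p under 0.05 (edgeR) there were 57 members, of which 1, Hist2h2be, was lower. The share of all genes at that unadjusted threshold was not computed. Without gland 3 the number called higher fell to 2, Hist1h3h and Hist1h2bl, so the call of every other histone gene was lost there. The number over all 14835 genes tested without gland 3 was also low, at 23 called higher (0.155%). The calls with gland 2 alone as control, given at the end, rest on 1 gland.

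**Figure D2:**
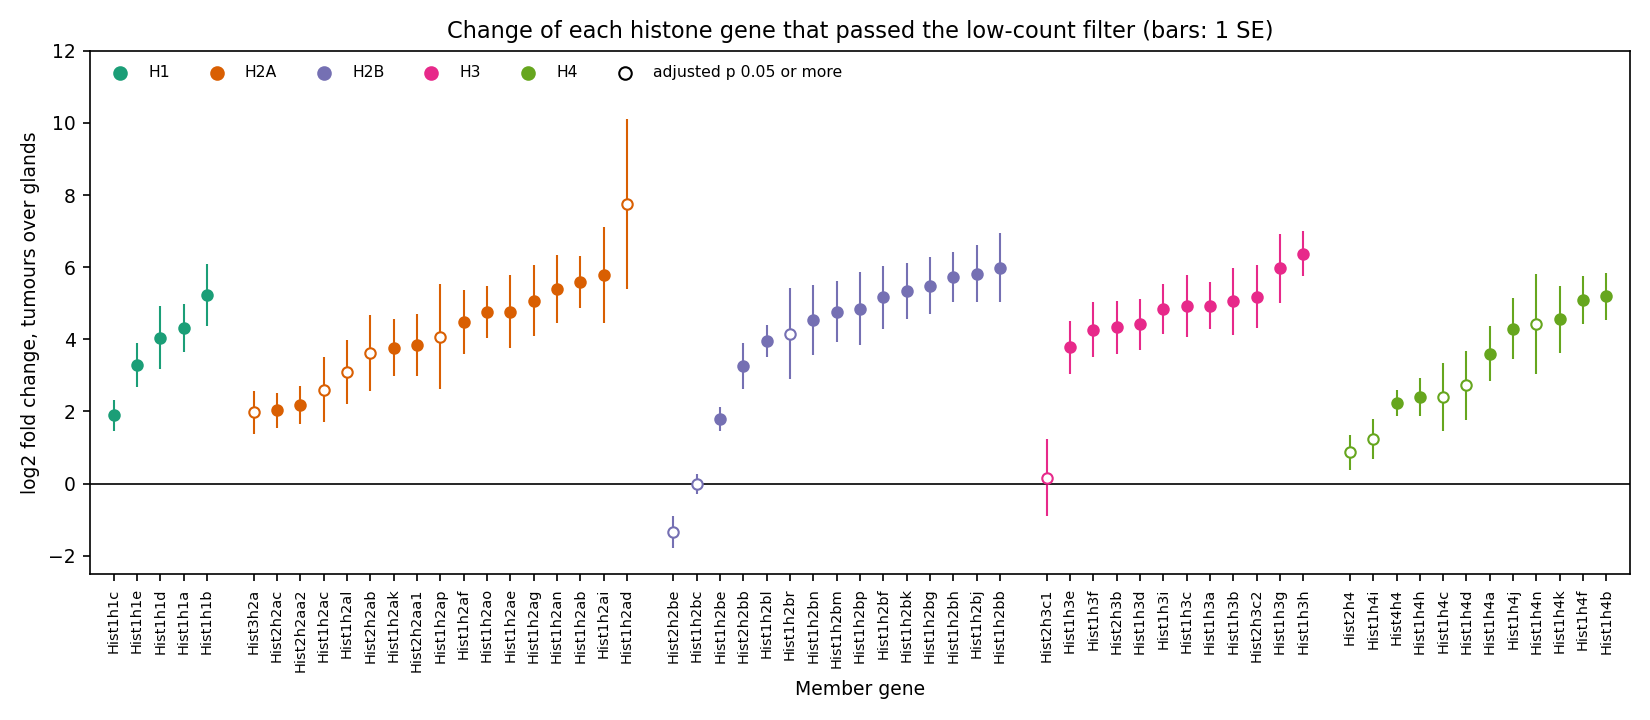
The log2 fold change, tumours over glands, of each of the 61 tested histone genes, ordered within class; bars are 1 SE and open points did not pass the threshold. Most genes lie between 2 and 6; Hist1h2bc, Hist2h3c1 and Hist2h2be lie near or below 0.

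Of the 6 linker histone genes, 5 were tested and all 5 rose. The sixth, the testis gene Hist1h1t, held too few counts. Hist1h1e, a somatic H1 expressed in most tissues, had 2.48, 8.73 and 4.41 CPM in glands and 48.6, 27.5, 40.4 and 94.3 CPM in tumours (log2 difference 3.29, SE 0.60, adjusted p = 0.02246, edgeR). The papillary tumour was the highest library for Hist1h1e. Hist1h1d had 0, 4.70 and 1.47 CPM in glands and 39.8, 24.5, 44.1 and 44.8 CPM in tumours, a log2 difference of 4.05 (adjusted p = 0.03472). The smallest difference of the class was that of Hist1h1c. It stood at 4.60, 12.5 and 11.1 CPM in glands and 38.1, 24.1, 30.8 and 49.0 CPM in tumours (log2 difference 1.89, SE 0.42, adjusted p = 0.0379).

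Of the 20 H2A genes, 17 were tested, 11 rose and 6 were not called. Hist2h2aa2, the H2A gene with the highest mean count, had 5.66, 22.9 and 15.7 CPM in glands and 111, 52.1, 62.3 and 46.5 CPM in tumours (log2 difference 2.18, SE 0.54, adjusted p = 0.04901, edgeR). Its sequence is wholly shared with other members, so its share of the class is uncertain. Hist1h2ab, whose promoter is shown above, had 0, 0.32 and 0.19 CPM in glands and 16.9, 4.90, 12.1 and 10.3 CPM in tumours (log2 difference 5.59, SE 0.72, adjusted p = 0.01011). Hist1h2ai had 0, 1.36 and 0.47 CPM in glands and 77.5, 36.2, 54.1 and 2.26 CPM in tumours. The papillary tumour thus stood far below the other tumours and close to gland 2 for this gene, 89.3% of whose read-length stretches occur in another member. Its log2 difference was 5.79 (SE 1.33, adjusted p = 0.0402). It was not called with limma-voom (4.82, adjusted p = 0.327), nor without any 1 library other than the papillary tumour (5.35 to 6.86, adjusted p = 0.06481 to 0.1531).

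Further H2A genes were not called by edgeR. Hist1h2ap had 0, 4.73 and 0 CPM in glands and 40.5, 22.2, 45.0 and 15.2 CPM in tumours, with an adjusted p of 0.1182. It was called with DESeq2 (4.23, adjusted p = 0.01976) and, with edgeR, without gland 2 (adjusted p = 0.01885), where both glands left are at 0. Of the read-length stretches of Hist1h2ap, 92.6% occur in another member, so how reads were divided is uncertain. Hist3h2a, from the small cluster on chromosome 11, had the smallest log2 difference of the class, 1.97 (SE 0.58, adjusted p = 0.07885; 0.001359 with DESeq2 and 0.04668 with limma-voom). All tumours (7.60 to 8.68 CPM) were above all glands (0.35 to 3.34 CPM) for Hist3h2a. Hist1h2al, a processed pseudogene outside the clusters that counts in the H2A total, had 0, 5.08 and 3.60 CPM in glands. In tumours 1a, 1b, 3 and 4 it had 40.3, 24.5, 29.6 and 12.6 CPM and was not called (adjusted p = 0.07362, edgeR). Hist1h2ad held no counts in any gland and 50, 7, 0 and 38 counts in tumours 1a, 1b, 3 and 4, and was not called (adjusted p = 0.1037).

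Of the 19 H2B genes, 15 were tested, 12 rose and 3 were not called. Hist2h2bb had 2.48, 8.86 and 3.32 CPM in glands and 85.5, 39.6, 45.8 and 24.0 CPM in tumours (log2 difference 3.27, SE 0.63, adjusted p = 0.02596, edgeR). Hist1h2bl had 0.71, 1.13 and 0.57 CPM in glands and 18.2, 11.6, 11.2 and 10.8 CPM in tumours. The lowest tumour was thus far above the highest gland (log2 difference 3.96, SE 0.44, adjusted p = 0.008355). Hist1h2bh differed by 5.72 (SE 0.69, adjusted p = 0.008872) and Hist1h2bj by 5.82 (SE 0.80, adjusted p = 0.01085) on the log2 scale. Hist1h2be, whose gene model overlaps that of Hist1h1e on the same strand, had 6.37, 6.05 and 8.30 CPM in glands and 34.9, 22.2, 22.6 and 16.1 CPM in tumours (log2 difference 1.79, SE 0.34, adjusted p = 0.02556).

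A pair of H2B genes stood apart. Hist1h2bc had 21.9, 20.7 and 34.9 CPM in glands and 23.3, 20.1, 30.1 and 29.1 CPM in tumours, and the groups overlapped (log2 difference -0.01, SE 0.29, adjusted p = 0.983, edgeR). Its share of all H2B counts was 60.8%, 45.4% and 65.2% in the 3 glands, against 7.46% to 15.8% in the tumours. Hist2h2be, an H2B gene known from olfactory neurons, had 3.18, 3.15 and 4.74 CPM in glands and 1.36, 0.95, 2.17 and 1.36 CPM in tumours. All tumours were below all glands for Hist2h2be, but its log2 difference of -1.34 (SE 0.44) did not pass (adjusted p = 0.09807; DESeq2 gave -1.39 with adjusted p = 0.01157).

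Leaving these 2 genes out, a choice made after their values were seen, the other H2B genes summed to 10.96, 21.72 and 13.9 CPM in glands. In tumours they summed to 288, 136, 167 and 154 CPM. The ratio of the means was then 11.98, given here without a test.

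All 12 H3 genes were tested and 11 rose. Hist1h3h, which has the smallest adjusted p of all members, had 0, 0.063 and 0.095 CPM in glands and 8.85, 4.49, 6.31 and 6.31 CPM in tumours (log2 difference 6.38, SE 0.61, adjusted p = 0.008049, edgeR). The fitted difference of so low a gene depends on the few counts in glands. Hist1h3b, the H3 gene with the highest mean, had 0, 1.51 and 0.19 CPM in glands and 38.3, 17.1, 20.99 and 18.5 CPM in tumours. The log2 difference of Hist1h3b was 5.05 (SE 0.93, adjusted p = 0.02273). Hist1h3f (4.27), Hist1h3e (3.78) and Hist1h3a (4.93 on the log2 scale) rose as well. The exception was Hist2h3c1, with 1.41, 1.77 and 2.89 CPM in glands and 1.87, 0, 1.58 and 5.61 CPM in tumours (log2 difference 0.17, SE 1.07, adjusted p = 0.9334). Its tumours spread on both sides of the glands, and the interval is wide enough to hold a fall or a rise. Its close copy Hist2h3c2 had 0 to 0.43 CPM in glands and 3.25 to 13.8 CPM in tumours, so division of reads between the copies is uncertain.

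Of the 13 H4 genes, 12 were tested, 7 rose and 5 were not called. Hist1h4b, with the GGTCC stem shown above, had 0, 0.50 and 0.38 CPM in glands and 21.6, 11.6, 13.7 and 9.06 CPM in tumours (log2 difference 5.19, SE 0.66, adjusted p = 0.009664, edgeR). Hist1h4f, with a GGCCC stem, differed by 5.09 (SE 0.67, adjusted p = 0.01011). Hist4h4, the only member on chromosome 6 and nowhere identical over a read to another member, had 4.60, 5.93 and 4.03 CPM in glands and 32.8, 15.1, 24.0 and 20.5 CPM in tumours. Its count is thus free of exact sharing over a read, while near-identical stretches were not looked for. Hist4h4 rose by 2.24 on the log2 scale (SE 0.36, adjusted p = 0.01515).

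The H4 gene with the highest count, Hist1h4d, was not called by edgeR. It stood at 0, 11.3 and 10.7 CPM in glands and 73.1, 30.1, 47.0 and 51.5 CPM in tumours (log2 difference 2.72, SE 0.97, adjusted p = 0.1183; 0.0188 with DESeq2). Gland 1, the shallow library, was the lone gland at 0, where 3 counts correspond to 1.06 CPM. Hist1h4n had 0, 3.22 and 0 CPM in glands and 45.8, 14.4, 26.2 and 24.2 CPM in tumours. Its adjusted p was 0.08872 with edgeR and 0.005869 with DESeq2. With edgeR without gland 2, where both glands left are at 0, it was 0.01814. Of the read-length stretches of Hist1h4n, 83.4% occur in another member, so how reads were divided is uncertain. Hist2h4 had the smallest difference of the class, with 3.18, 10.4 and 5.45 CPM in glands and 18.0, 7.21, 11.9 and 9.93 CPM in tumours. The groups overlapped for Hist2h4 (log2 difference 0.86, SE 0.49, adjusted p = 0.2812), which is also nowhere identical over a read to another member.

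Members at very low levels included the testis genes Hist1h2aa and Hist1h2ba, which with the pseudogene Hist1h2aj were at 0 in all 7 libraries. The testis markers Prm1 and Tnp1 were at 0 too. Hist3h2ba and the pseudogene Hist3h2bb-ps were at or under 0.51 CPM in every library and were not tested.

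Members that rose less tended to have longer annotated 3′ UTRs. Of members with an annotated 3′ UTR of 1000 bases or more, 10 were tested and 4 rose, with a median log2 difference of 2.11. With 200 to under 1000 bases, 11 were tested and 7 rose, with a median of 3.78. Below 200 bases, 37 were tested and 33 rose, with a median of 4.84. This last group holds 12 genes annotated with under 30 bases, where the UTR may simply be unannotated, and the median was 4.91 without them.

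Across the 58 tested members with an annotation, Spearman's rho was -0.55 between UTR length and log2 difference, 0.47 between UTR length and mean CPM in glands, and near 0 (-0.003) between UTR length and mean CPM in tumours. The members share libraries and the log2 difference contains the gland level (rho -0.86 between them), so these values are a description. In glands, members with 200 bases or more of 3′ UTR in the groups above held 27.0% (1000 or more) and 39.4% (200 to under 1000) of all histone CPM, and those under 200 bases 31.2%. In tumours these shares, which are of counts not scaled by length, were 17.3%, 20.3% and 58.8%. Hist1h2bc alone was 19.6% of all histone CPM in glands and 2.502% in tumours. With Hist1h2bc left out of both group and total, a choice made after its values were seen, the share of the group with 200 to under 1000 bases was 24.7% in glands and 18.3% in tumours. Where a stem-loop was found, much of a long UTR lay behind it, 1257 bases in Hist2h4 and 2445 bases in Hist4h4. What share of reads came from there was not tested. No stem-loop match was found in the long UTRs of Hist1h2bc (742 bases) and Hist2h2be (2192 bases), among others.

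**Figure D3:**
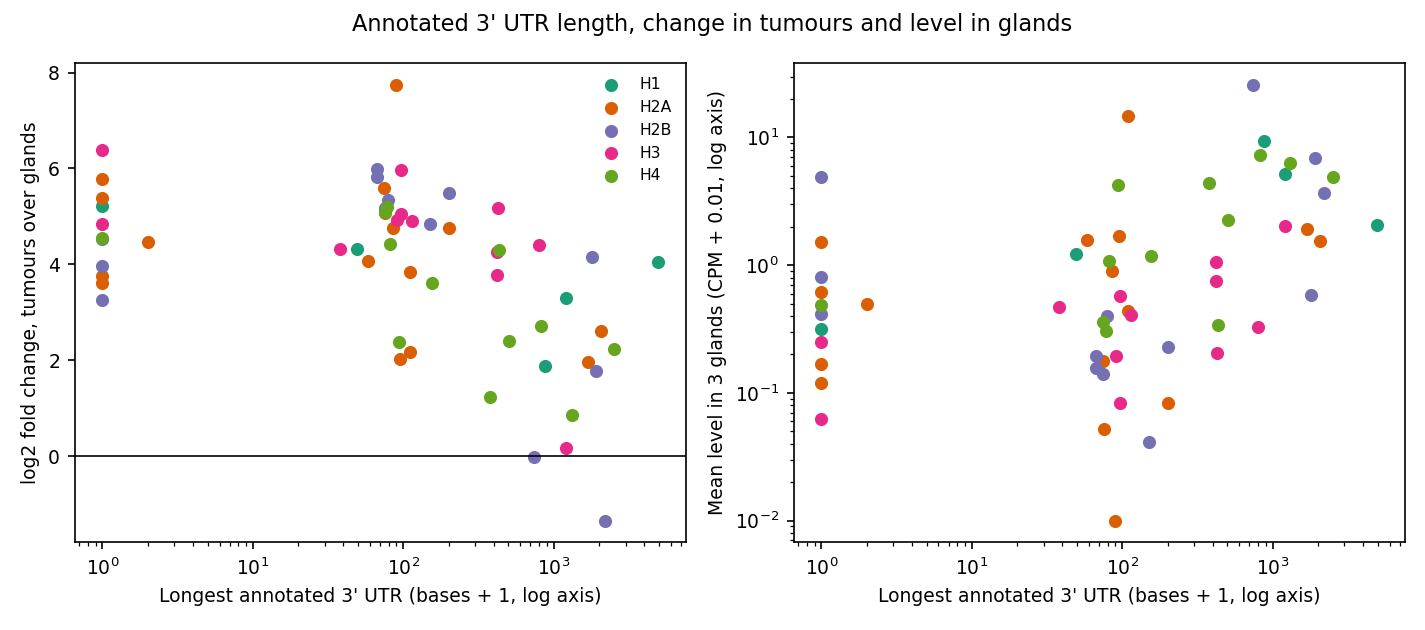
Longest annotated 3′ UTR of each tested histone gene (bases + 1, log axis) against its log2 fold change, left, and against its mean level in the 3 glands (CPM + 0.01, log axis), right; colours are classes. Genes with UTRs of 1000 bases or more lie mostly at lower fold change and higher gland level.

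H2A and H2B genes often sit head to head and share the DNA between their starts. In the annotation 13 such pairs were 173 to 306 bases apart from start to start. Both genes were tested in 9 pairs and both rose in 5. Hist1h2bl and Hist1h2ai, 279 bases apart, rose by 3.96 and 5.79 on the log2 scale. In contrast, Hist1h2ac and Hist1h2bc, 251 bases apart, differed by 2.60 (adjusted p = 0.1103) and -0.01. The pair with the clearest contrast was Hist2h2ac and Hist2h2be, 239 bases apart. Hist2h2ac had 2.48, 1.61 and 0.95 CPM in glands and 9.45, 5.99, 5.42 and 5.26 CPM in tumours (log2 difference 2.03, SE 0.48, adjusted p = 0.04442, edgeR), while Hist2h2be was lower in all tumours.

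By location, the 18 members at chr13:21715763-21837530 summed to 4.24, 19.8 and 6.54 CPM in glands and 379, 181, 273 and 151 CPM in tumours. Their ratio of means was 24.1. The 15 members at chr13:23531050-23622558 had a ratio of 10.004, and the 13 at chr13:23681467-23764406, with Hist1h2bc among them, 4.77. The 10 members at chr3:96219865-96270132 had a ratio of 4.86. Hist1h2bh and Hist1h2bm were not found in the annotation by identifier and are in none of these sums. Their RefSeq promoters start at chr13:23543395 and chr13:21721794, inside ranges given here. These ratios have no test, and the differences between locations were not tested.

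In the adenosquamous tumours alone, the type with 2 libraries, the 5 class totals were higher than in glands by 2.93, 3.49, 2.33, 4.29 and 2.78 on the log2 scale for H1, H2A, H2B, H3 and H4 (adjusted p = 0.02166 to 0.03224, edgeR). Of 60 members tested, 40 were higher, 0 lower (1 at an unadjusted p under 0.05; also 0 by DESeq2 and limma-voom) and 20 not called. Over all 14708 genes, 5.01% were called higher and 5.36% lower. Tumour 1a was above tumour 1b in every class, for example 184 against 82.6 CPM for H3. Without gland 3 no member was called higher, but 0 of all 14034 genes tested there were called higher either. The calls without tumour 1a or 1b, given at the end, rest on 1 tumour library. Left-out libraries and other tools were tried on these member counts but not on the adenosquamous class totals. The glands are the same as in the comparison of all tumours, so both results share their controls.

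The spindle cell and papillary tumours are 1 library each and have no replicate check. Spindle cell tumour 3 lay between tumours 1a and 1b in all 5 class totals. The papillary tumour was above the other 3 tumours for H1, at 231 against 101 to 188 CPM, and below them for H2A, at 165 against 221 to 451 CPM. The H1 rank rests largely on Hist1h1e, whose gene model overlaps that of Hist1h2be. Hist1h1e had 94.3 CPM in the papillary tumour against 27.5 to 48.6 CPM in the others. Hist1h1a and Hist1h1b lay within the range of the other tumours. Of the tested members, the papillary tumour was below the other tumours in 18 of 61, close to the 29.3% seen over all genes, and 11 of these 18 were H2A genes. In 11 of 61 it was above the others, none of them H2A, against 32.4% of all genes.

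Among H2A genes the median log2 ratio of the papillary tumour to the mean of the other tumours, with 0.1 CPM added, was -0.69, from -4.57 for Hist1h2ai to 0.42. For H1 genes it was 0.31. The medians were -0.13 for H2B, 0.17 for H3 and -0.24 for H4. The low H2A total does not depend on how reads were divided among H2A genes. Hist1h2ai, part of it, had 2.26 CPM in the papillary tumour against 36.2 to 77.5 CPM in the others. Of 15 tested members of several classes annotated at chr13:21715763-21837530, the papillary tumour was below the others in 7 and above in 1. The shares over all genes were 29.3% and 32.4%. The papillary type is 1 tumour, and whether its library was prepared apart from the others is not stated in the labels.

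**Figure D4:**
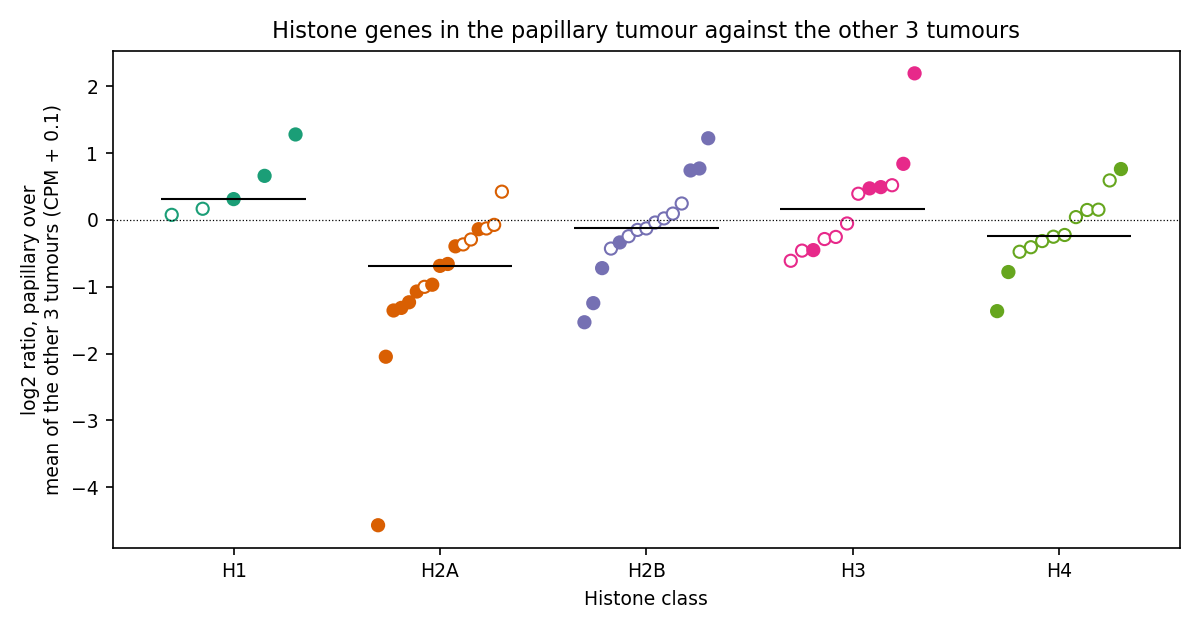
The log2 ratio of each tested histone gene in the papillary tumour to the mean of the other 3 tumours (CPM + 0.1), by class; filled points lie outside the range of the other 3 tumours and lines are medians. H2A genes lie lowest, with a median of -0.69.

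Genes that serve S phase were also higher in tumours, with a smaller median. Of a list of 30 genes of DNA replication and nucleotide supply, 22 rose and none fell, with a median log2 difference of 2.31. The shares over all genes tested were 3.90% higher and 4.57% lower. Pcna, the sliding clamp of DNA polymerases, had 17.7, 17.2 and 18.6 CPM in glands and 41.8, 37.0, 36.2 and 53.1 CPM in tumours (log2 difference 1.24, adjusted p = 0.02556, edgeR). Rrm2, the S phase subunit of ribonucleotide reductase, had 0 to 1.39 CPM in glands and 14.8 to 34.6 CPM in tumours, a log2 difference of 4.96 (adjusted p = 0.01878). Mcm2, a subunit of the replicative helicase, rose by 3.88. The proliferation marker Mki67 had 8.49, 28.3 and 9.34 CPM in glands and 279, 240, 405 and 357 CPM in tumours (log2 difference 4.37, adjusted p = 0.01011).

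The ratio of summed histone CPM to the summed CPM of that S phase list was 0.71, 1.34 and 1.15 in glands. In tumours it was 2.40, 1.73 and 1.84 in 1a, 1b and 3 but 1.13 in the papillary tumour, which lay within the range of the glands. Lymphoid cells also divide. The 7 T and B cell markers summed to 145 CPM in gland 2 and 82.1 CPM in tumour 1a, the libraries with the highest histone sums of their groups, and to at most 7.07 CPM elsewhere. Their part in the histone values was not tested.

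Genes that make and process histone mRNA mostly did not pass. Of 26 listed genes, 3 rose and none fell, with a median log2 difference of 0.47. Over all genes tested, 3.90% were called higher and 4.57% lower, with a median of 0.12. Slbp, which binds the stem-loop, had 25.8, 17.3 and 11.6 CPM in glands and 27.9, 21.5, 18.5 and 19.999 CPM in tumours, with overlapping groups (log2 difference 0.28, SE 0.33, adjusted p = 0.6077, edgeR). Npat, the coactivator of histone transcription, differed by 0.30 (SE 0.29, adjusted p = 0.521) and Casp8ap2 (FLASH), a factor of 3′ end cleavage, by -0.02 (SE 0.27, adjusted p = 0.9769). The U7 particle proteins Lsm10 and Lsm11 differed by -0.05 and 0.42, and the exonuclease Eri1 by 0.72 (adjusted p = 0.1584). Zfp473, a zinc finger protein of the U7 complex, had 0 to 0.44 CPM in glands and 1.11 to 2.51 CPM in tumours (log2 difference 2.68, adjusted p = 0.0692). The 3 that rose were Ccne1, the cyclin that drives Npat (2.18), Snrpb, an Sm protein shared with other particles (1.47), and Upf1, a helicase of mRNA decay (1.00 on the log2 scale). Ccne1 and Ccne2 are also in the S phase list.

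Histone variants are made outside S phase as well. Of 11 listed, 10 were tested, 3 rose and none fell, with a median of 0.88. The shares over all genes tested were 3.90% higher and 4.57% lower. H2afx, the variant phosphorylated at DNA breaks, had 2.12, 1.29 and 1.28 CPM in glands and 18.7, 10.1, 17.7 and 16.8 CPM in tumours (log2 difference 3.41, adjusted p = 0.008872, edgeR). Cenpa, the H3 variant of centromeres, rose by 2.70, and H2afz, found at promoters, by 1.93. The most abundant variants, H3f3a and H3f3b, which encode H3.3, differed by 0.46 (adjusted p = 0.2954) and 0.83 (adjusted p = 0.09598). The sum over all variants was 303 to 384 CPM in glands, with gland 3 lowest. In tumours it was 586 to 748 CPM.

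Of 26 histone chaperones and assembly factors, 4 rose and none fell, with a median of 0.60. The shares over all genes tested were 3.90% higher and 4.57% lower. Chaf1a and Chaf1b, subunits of the CAF-1 complex that deposits H3 and H4 behind the replication fork, rose by 3.53 and 3.69 on the log2 scale. The other 2 were Mcm2, also in the S phase list, and Ssrp1, a subunit of FACT (1.02). Asf1b, the proliferation-linked form of ASF1, had 0, 1.32 and 0.71 CPM in glands and 6.81, 2.04, 2.46 and 6.90 CPM in tumours (adjusted p = 0.1079), while Asf1a differed by -0.16. Hira, which deposits H3.3 outside replication, differed by 1.10 (adjusted p = 0.07985), and Nasp, which holds soluble H3 and H4, by 0.81 (adjusted p = 0.118).

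**Figure D5:**
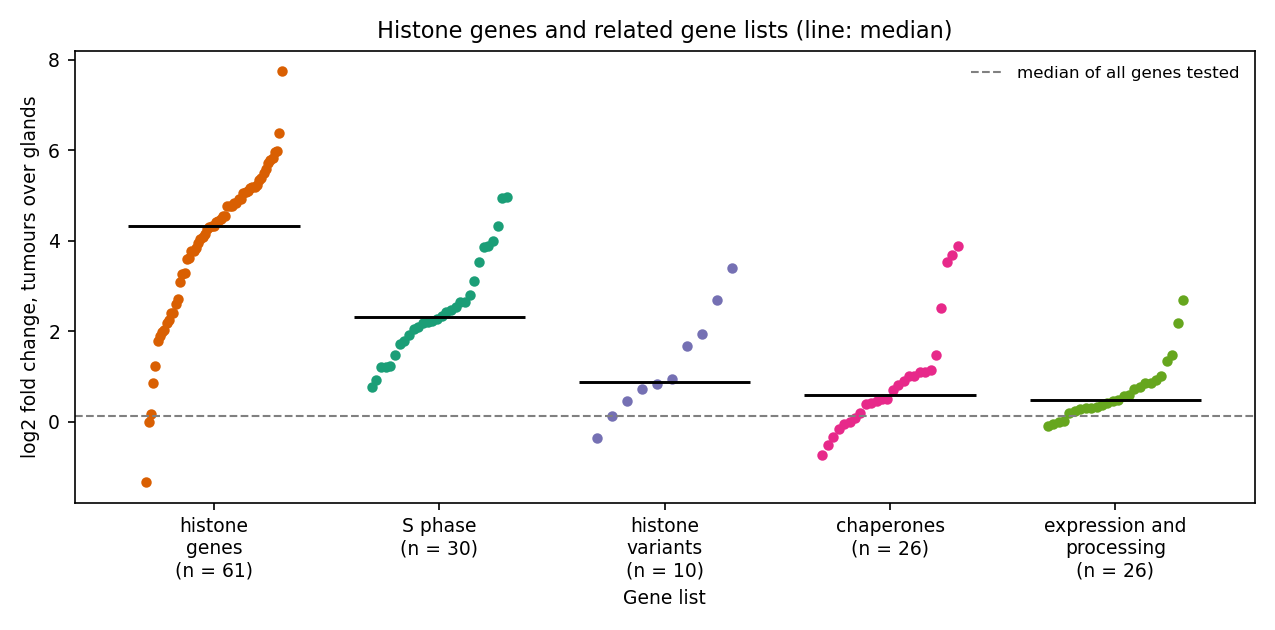
The log2 fold change, tumours over glands, of the tested genes of each list; lines are medians and the dashed line is the median of all genes tested, 0.12. Medians were 4.33 for the histone genes, 2.31 for S phase, 0.88 for variants, 0.60 for chaperones and 0.47 for expression and processing.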

How the data were processed

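Libraries were made with the TruSeq RNA v2 kit, which does not mark strand, and read as pairs of 75 bases, per the labels' protocols. STAR 2.5, RSEM 1.3 and limma, and the build GRCm38, are listed in the submitters' processing notes with no role for each. The deposited values are estimated counts (expected counts) per gene made by the authors; their column is headed TPM, but its sums differ between libraries (5148436 to 35631302), so it was read as counts and rounded. The sources used here do not give the annotation release or any filter.

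Groups came from the labels. All 50600 rows were fitted with edgeR 4.0.16 in R 4.3.3 (TMM, filterByExpr with a minimum count of 10 and total of 15, quasi-likelihood F test, two-sided, Benjamini-Hochberg over all genes, threshold 0.05). For class totals, member rows were summed to 1 row per class before the fit. SE is the log2 difference divided by the square root of F. Means are given with SD. Alternatives used DESeq2 1.42.0, limma 3.58.1 (voom), other scalings and filters, and each library left out. The fit was tested on simulated data. Gene positions and UTRs are GENCODE M21 and promoters RefSeq; 68 of 70 identifiers matched.

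Members and lists were chosen with earlier results of these data known. Named members were, per class, the 3 with the highest mean CPM and the 1 with the lowest log2 difference. The 8 with the smallest adjusted p, all Hist3 and Hist4 genes and a fixed set of related genes were named too. Further members (Hist1h1t, Hist1h2aa, Hist1h2ba, Hist1h2aj, Hist1h2al, Hist1h2ad, Hist1h2ac, Hist2h2ac, Hist2h3c2) and list genes that passed were named after their values were seen.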

Additional observations from a re-analysis of the deposited data

Results flagged for a closer look

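Hist1h2bl in adenosquamous tumour 1a stood apart from the other tumours, at 18.2 CPM against 10.8 to 11.6 CPM. The gap took 0.897 of the range of the 4 tumours, above Dixon's critical value for 4 samples at the 95% level. It was 1 of 34 values tested in this way, and chance gives such a gap in about 1 in 20. Tumour 1a was also the highest tumour in 46 of the 61 tested histone genes, and how often it is highest over all genes was not computed. All glands were at or under 1.13 CPM for Hist1h2bl.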

How the results depend on the processing

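In the comparison of all tumours, the direction of all 5 class totals held under every alternative run. The calls did not. Leaving out 1 library gave log2 differences of 2.87 to 3.68 for H1, 2.998 to 3.82 for H2A, 2.03 to 2.41 for H2B, 3.97 to 4.69 for H3 and 2.48 to 3.03 for H4. H1 and H3 lost their call without gland 3, H2A and H4 without gland 1 or 3, and H2B without gland 1, 2 or 3. With gland 2 as the only control, an alternative added after seeing the data, the differences were 2.48, 2.58, 2.16, 3.73 and 2.25 for H1, H2A, H2B, H3 and H4, with no call; the lone gland was assumed to vary like the other libraries. The number of members higher in tumours (46) ranged from 2 (without gland 3) to 43 (without the papillary tumour) with 1 library left out, was 0 with gland 2 alone, and was 41 to 56 under other tools, scalings and filters. DESeq2 called 1 member lower, Hist2h2be. The number higher in adenosquamous tumours (40) ranged from 0 (without gland 3, 1a or 1b) to 41, and was 34 to 50 under other tools, scalings and filters. Over all genes, the tumour comparison called 552 genes higher, 1807 with DESeq2, 334 with no filter, 23 without gland 3 and 0 with gland 2 alone.

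Values near 0 changed sign. Hist2h3c1 was -0.28 with limma-voom and -0.86 to 0.60 with 1 library left out. Hist1h2bc was 0.047 with no filter, 0.013 with 10 counts in at least 3 libraries, 0.25 with gland 2 alone, and -0.15 to 0.27 with 1 library left out. None of these passed, and the cause was not tested. No paired analysis was possible because the groups compared share fewer than 2 replicate numbers. Gland 1, with 222 histone counts, limits what can be said of single genes: 3 counts there correspond to 1.06 CPM.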
